A study of Mus musculus with 4 samples.

Results

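Integrins and focal adhesion components were followed in sorted MC38 tumor cells as 32 genes taken by symbol from a table of 53379 gene identifiers: 11 integrin alpha subunits, 7 beta subunits and 14 adaptors, activators and kinases of the focal adhesion. MC38 is a colon adenocarcinoma line of C57BL/6 mice, here carrying GFP, and the cells came from subcutaneous tumors in C57BL/6 mice inoculated with 50000 cells each. All mice, in both groups, had received anti-PD-1, an antibody against the inhibitory T cell receptor PD-1, in sub-optimal doses of 100 µg on days 12, 15, 18 and 22, so there was no untreated group. Tumor cells were sequenced in bulk from tumors labelled non-responder (2 libraries) and responder (2 libraries), with 18447041 to 21754063 counts per library. The labels do not say how response was scored or whether each library is a separate mouse, so the p-values reflect only how these libraries vary, which may be technical.

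Integrins are transmembrane receptors made of 1 alpha and 1 beta subunit that tie the extracellular matrix to the actin cytoskeleton. The alpha subunit largely sets the ligand: collagen, laminin, or proteins with the RGD peptide motif such as fibronectin and vitronectin. Talin and kindlin bind the beta tail and switch the receptor on, vinculin, tensin and zyxin connect it to actin, and focal adhesion kinase, Src, paxillin and p130Cas pass on the signal. The files hold RNA only, so a pair is called possible here where both subunits had RNA, and protein at the cell surface was not measured.

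The labelled cell type was set against marker genes. Of 12 epithelial and colonic markers, 11 stayed under 1 CPM (counts per 1000000 counted reads, scaled by TMM) in all 4 libraries, among them Epcam, Krt8 and Krt18, and Cdh1 (E-cadherin) had 0.44 to 2.47 CPM. Several fibroblast markers were abundant instead. The 14 listed summed to 10241 and 16532 CPM in the non-responders and 8879 and 7694 CPM in the responders (replicate 1 before replicate 2). Most of this came from Col3a1, a fibrillar collagen chain, at 7607 and 13410 CPM in the non-responders and 6906 and 5800 CPM in the responders. Thy1 and Pi16, 2 of the 14, stayed under 1 CPM in all 4 libraries, and Mfap5 had at most 1.03 CPM. Markers of other cells summed to far less: leukocyte markers to 51.3, 144, 15.2 and 59.7 CPM in the same order of libraries, and endothelial markers to 26.3, 29.9, 14.9 and 18.3 CPM. Pericyte and smooth muscle markers summed to 68.6, 116, 108 and 135 CPM, nearly all of it from Cspg4 (NG2, a proteoglycan of pericytes and other cells) at 65.2, 110, 104 and 132 CPM. In bulk RNA, fewer cells of a type and less RNA per cell cannot be told apart.

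The most abundant subunits and the beta subunit with the largest positive fold change are shown with the DNA just before their start sites, because the first set holds most of the subunit RNA and Itgb7 stands far below it in level. The RefSeq table (GRCm38.p6) held 24 of the 32 members. Each line gives the 250 bases before the annotated start, 5′ to 3′ on the gene's strand, with matches to the motifs searched in capitals. No annotated exon of the deposited gene models lies in these windows.
Itgb1: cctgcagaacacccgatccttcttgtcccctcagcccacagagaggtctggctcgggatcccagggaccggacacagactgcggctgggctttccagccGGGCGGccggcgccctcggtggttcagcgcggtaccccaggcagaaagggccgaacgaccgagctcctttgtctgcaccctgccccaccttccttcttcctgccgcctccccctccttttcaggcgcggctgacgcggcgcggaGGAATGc
Itgav: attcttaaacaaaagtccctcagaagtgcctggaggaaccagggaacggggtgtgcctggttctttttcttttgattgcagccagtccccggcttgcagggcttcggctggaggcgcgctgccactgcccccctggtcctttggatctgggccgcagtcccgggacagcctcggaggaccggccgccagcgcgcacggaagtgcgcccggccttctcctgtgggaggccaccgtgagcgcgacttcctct
Itga5: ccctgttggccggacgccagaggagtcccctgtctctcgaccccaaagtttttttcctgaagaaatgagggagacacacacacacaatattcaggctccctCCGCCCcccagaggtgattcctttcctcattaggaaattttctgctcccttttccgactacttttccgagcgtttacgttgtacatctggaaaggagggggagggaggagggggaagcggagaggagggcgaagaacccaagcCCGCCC
Itgb5: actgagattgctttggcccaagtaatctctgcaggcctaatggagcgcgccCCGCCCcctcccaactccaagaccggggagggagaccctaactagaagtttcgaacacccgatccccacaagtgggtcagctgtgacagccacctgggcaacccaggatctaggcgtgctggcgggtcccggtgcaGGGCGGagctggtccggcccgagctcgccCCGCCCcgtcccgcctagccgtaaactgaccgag
Itgb7: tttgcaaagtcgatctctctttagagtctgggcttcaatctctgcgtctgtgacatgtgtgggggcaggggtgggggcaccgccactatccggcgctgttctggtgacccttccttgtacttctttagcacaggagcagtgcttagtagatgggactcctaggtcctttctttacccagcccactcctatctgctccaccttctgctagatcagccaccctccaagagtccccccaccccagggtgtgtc

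The windows are chr8:128685404-128685653 (+ strand) for Itgb1, chr2:83724147-83724396 (+ strand) for Itgav, chr15:103366792-103367041 (- strand) for Itga5, chr16:33829415-33829664 (+ strand) for Itgb5 and chr15:102231936-102232185 (- strand) for Itgb7. G and C made up 68.0% of the Itgb1 window, 65.2% of Itgb5, 64.4% of Itgav, 55.6% of Itga5 and 56.0% of Itgb7, where the median over all 32851 windows in the table was 52.4%. Promoter motifs were searched on both strands. The GC box, read as GGGCGG, occurred in 32.7% of all windows. The motif of TEAD factors, read as GGAATG, occurred in 12.6%, and that of AP-1, read as TGACTCA, in 4.46%. The CCAAT box was found in 33.8% of windows and the TATA box, read as TATAAA, in 12.4%. An E-box of the letters CACGTG lay in 6.02%, the RUNX motif TGTGGT in 14.0%, and the ETS motif CCGGAA in 12.0%. None of these motifs contains another. GC boxes began 151 bases before the Itgb1 start, 149 and 6 bases before Itga5, and 199, 63 and 34 bases before Itgb5. A TEAD match began 7 bases before the Itgb1 start. The Itgav and Itgb7 windows held none of the 8 motifs. Of the 24 matched members 14 had a GC box in at least 1 window, and 2 (Itgb1 and Vcl) had a TEAD match. The 24 had 30 windows, with a median G and C content of 64.8%. Counts per member are therefore a different measure from the shares of single windows above. All motif hits are letter matches in 1 window per start site, not sites of binding.

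MC38 cells carried RNA for a narrow set of integrins, dominated by beta 1. To compare genes, counts were divided by the deposited exon length and scaled to TPM, the usual length-corrected unit. Itgb1, the common partner of most alpha subunits, had 1472 and 1162 TPM in the non-responders and 1275 and 962 TPM in the responders, replicate 1 first here and below. That placed it between rank 37 and rank 87 of all genes in each library. It held 89.9% ± 2.48 (SD over 4 libraries) of the summed TPM of the 7 beta subunits. Next came Itgb5 with 6.91% ± 1.78, Itgb8 with 1.57% ± 0.24 and Itgb4 with 1.12% ± 0.60. The ranges of Itgb8 and Itgb4 overlapped. Itgb7 held 0.44% ± 0.30. Itgb3 and Itgb6, the other RGD-type partners of the alpha v subunit, were close to absent: Itgb3 had 10, 8, 0 and 4 reads and Itgb6 had 5, 1, 4 and 5 reads in non-responder replicates 1 and 2 and responder replicates 1 and 2. A count of 0 in responder replicate 1 allows up to 0.149 CPM (3 reads, counting error only).

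Among alpha subunits, Itgav and Itga5 together held 90.1% to 92.9% of the summed TPM of the 11 listed. Itgav, the alpha v subunit that binds vitronectin, fibronectin and latent TGF-beta, had 211 and 176 TPM in the non-responders and 195 and 146 TPM in the responders. Itga5, the alpha 5 subunit of the main fibronectin receptor, had 119 and 137 TPM in the non-responders and 156 and 141 TPM in the responders. Itgav therefore stood 1.77-fold above Itga5 in non-responder replicate 1 and 1.04-fold above it in responder replicate 2, with ratios of 1.29 and 1.25 in the libraries between. Laminin-binding subunits came next, far below them: Itga3 had 10.4 to 15.6 TPM, Itga6 had 5.80 to 8.38 TPM and Itga7 had 2.51 to 6.49 TPM. The ranges of Itga6 and Itga7 overlapped, and those of Itga3 and Itga6 did not. The collagen-binding subunits Itga1 (0.74 to 1.72 TPM), Itga2 (0.08 to 0.31 TPM) and Itga11 (0.13 to 0.77 TPM) were low, as was Itga8 (0.13 to 0.59 TPM), an RGD-binding subunit. Itga10, a collagen-binding subunit that is not among the 32 members, had 1.12 and 1.90 TPM in the non-responders and 2.49 and 2.23 TPM in the responders. Summed beta TPM was 3.41 to 4.45 times the summed alpha TPM in each library.

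**Figure D1:**
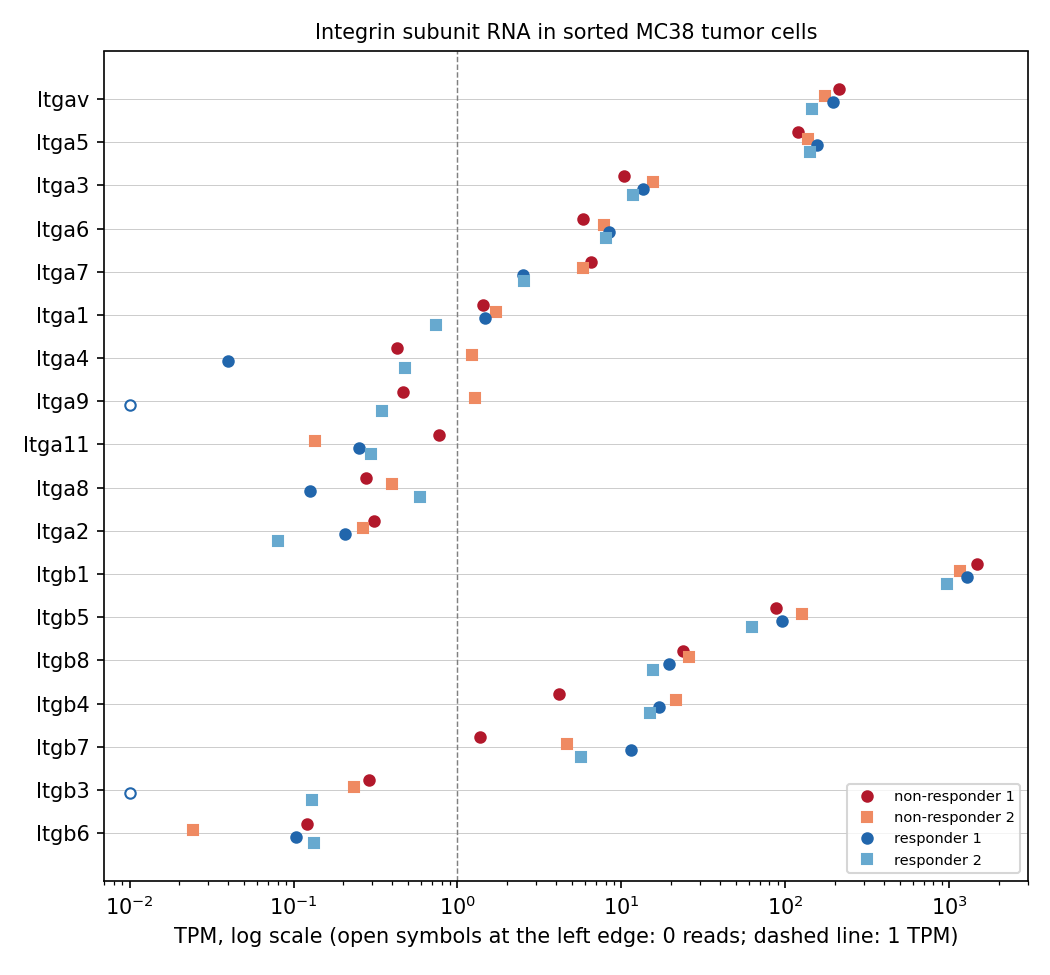
Level of each integrin subunit in TPM (log axis) in the 4 libraries, alpha subunits above beta subunits, each ordered by mean. Each point is 1 library and open symbols are 0 reads; Itgb1 lies at 962 TPM or above in every library while Itgb3 and Itgb6 stay under 1 TPM.

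Of 17 known alpha-beta pairs of these subunits, 8 had both subunits at 1 TPM or more in all 4 libraries. Alpha v beta 1, with Itgav as its lower subunit, ranged from 146 to 211 TPM, and alpha 5 beta 1, with Itga5 as the lower, from 119 to 156 TPM. The ranges overlapped, but Itgav RNA was above Itga5 RNA in each of the 4 libraries, by the ratios above. Every alpha v pair here draws on the same Itgav RNA, so these levels do not rank the receptors. Alpha v beta 5, a vitronectin receptor, was limited by Itgb5 at 88.0 and 127 TPM in the non-responders and 95.1 and 62.8 TPM in the responders. Alpha v beta 8, an activator of latent TGF-beta, was limited by Itgb8 at 23.9 and 25.8 TPM in the non-responders and 19.6 and 15.7 TPM in the responders. The laminin receptors alpha 3 beta 1, alpha 6 beta 1, alpha 6 beta 4 and alpha 7 beta 1 made up the remainder, with lower subunits at 2.51 to 15.6 TPM. The 9 other pairs missed the level in at least 1 library. Alpha 1 beta 1, a collagen receptor, missed it only in responder replicate 2, where Itga1 had 0.74 TPM. Alpha v beta 3 and alpha v beta 6 missed it in all libraries through their beta subunits. Beyond these pairs, the collagen receptor alpha 10 beta 1 had both subunits above 1 TPM in all 4 libraries, with Itga10 as the lower.

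**Figure D2:**
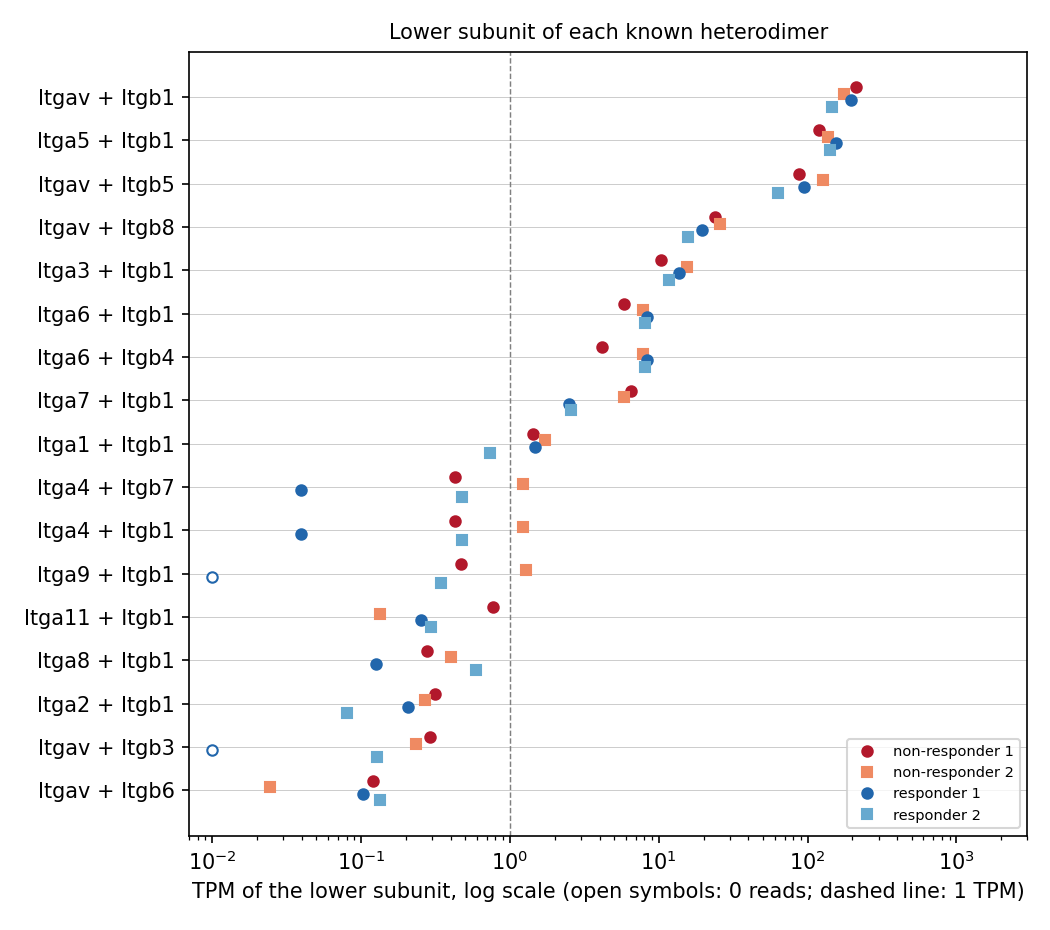
TPM of whichever subunit is lower (log axis) for 17 known integrin pairs in each of the 4 libraries, ordered by mean. Each point is 1 library and open symbols are 0 reads; 8 pairs lie at or above the dashed line at 1 TPM in every library.

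Fibronectin was the most abundant of 15 listed integrin ligands, a list without collagens or laminins. Fn1 had 4534 and 4335 TPM in the non-responders and 3590 and 2196 TPM in the responders, between rank 13 and rank 22 of all genes. Spp1 (osteopontin), an RGD ligand, had 591 to 1173 TPM and Fbn1 (fibrillin 1) 527 to 973 TPM. In CPM Fn1 was 1.53-fold lower in responders (log2 fold change -0.61, SE 0.32) with groups that did not overlap, at an adjusted p of 0.815 by edgeR's quasi-likelihood test. Vtn (vitronectin) was scarce at 1.93 and 0.63 CPM in the non-responders and 0.099 and 0.26 CPM in the responders (unadjusted p 0.00788, adjusted p 0.631, edgeR). Ccn1, a matricellular ligand of alpha v and alpha 6 integrins, had 219 and 125 CPM in the non-responders and 305 and 392 CPM in the responders, 2.03-fold higher (unadjusted p 0.00954, adjusted p 0.638, edgeR). These were the 2 of 15 listed ligands (13.3%) at an unadjusted p under 0.05, a level that 6.21% of all genes reached. Both passed the adjusted threshold with 1 library left out: Vtn without non-responder replicate 2 and Ccn1 without non-responder replicate 1. Those fits leave the non-responders with 1 library, so the spread is taken from the responders alone. The share of all genes passing in each is given below. Tgfb1, whose latent form carries an RGD site, had 57.2 and 59.3 against 71.7 and 67.2 CPM (log2 fold change 0.25, SE 0.16).

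Responder and non-responder tumor cells were compared next, to ask whether the receptors differ with the labelled response. No member passed edgeR's quasi-likelihood test with Benjamini-Hochberg adjustment over 13792 genes. Background was 0% of all genes at an adjusted p under 0.05, and the lowest adjusted p of a member was 0.37, for Itga7. Of the 32 members 29 passed the low-count filter. Itga11, Itgb3 and Itgb6 did not. At an unadjusted p under 0.05 there were 3 of the 29 (10.3%), Itga7 and Itgb8 lower and Itgb7 higher, where 6.21% of all genes reached that level (2.57% higher and 3.63% lower). Groups did not overlap for 9 of the 29, against 36.5% of all genes, with responders above in 4 (18.8% of all genes) and below in 5 (17.8% of all genes). The median log2 fold change of the 29 was -0.11, beside -0.01 over all genes tested. DESeq2 called 1 member, Itga7, and 62 genes in all (0.45%), and limma-voom called 0 (0%, with 6.34% at an unadjusted p under 0.05). Leaving out non-responder replicate 2 raised the count of 3 to 7, where 18.5% of all genes reached an unadjusted p under 0.05, and leaving out responder replicate 1 raised it to 5, where 4.4% did. Members past the adjusted threshold were Itga7, Itgb4 and Itgb7 without non-responder replicate 2, where 516 of 14259 genes passed (3.62%), and Itga4 and Itga9 without responder replicate 2, where 173 of 14445 passed (1.2%). None passed without non-responder replicate 1 (0.284% of all genes) or without responder replicate 1 (0.459%). These fits leave a group with 1 library, whose spread is taken from the remaining pair.

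Itga7, the laminin-binding alpha 7 subunit best known from muscle, gave the clearest separation. It had 14.8 and 12.3 CPM in the non-responders and 5.46 and 5.71 CPM in the responders, from 307, 273, 110 and 109 reads. Both responder libraries lay well below both non-responder libraries, and the responder values differed by little. The gene was 2.42-fold lower in responders (log2 fold change -1.28, SE 0.25, unadjusted p 0.000948, adjusted p 0.37 by edgeR's quasi-likelihood test). DESeq2 gave an adjusted p of 0.0271, and leaving out any 1 library gave log2 fold changes of -1.41 (without non-responder replicate 2, adjusted p 0.0050, edgeR) to -1.13. Itga7 (ENSMUSG00000025348) spans chromosome 10 from 128933818 to 128958282 on mm10, on the plus strand, and was counted over its exons. Of the 14 fibroblast markers, 12 also had a lower mean in responders. Among the 12 that could be tested, 7 had an unadjusted p under 0.05 (58.3%, edgeR), all lower, where 6.21% of all genes reached that level. None of them (0) passed at an adjusted p under 0.05. Groups did not overlap for 9 of the 12 (75%, against 36.5% of all genes), with responders below in 8 and above in 1. The 14 summed to 10241 and 16532 against 8879 and 7694 CPM, most of it from Col3a1, and their part in the Itga7 difference was not tested. Of the skeletal muscle markers, Ckm and Myh4 had 0 reads in all libraries and the 7 together summed to 2.03 to 3.01 CPM. Of the smooth muscle and pericyte markers, Myh11, Cnn1 and Des had at most 0.69 CPM and Acta2 at most 3.41 CPM. Cspg4 had the 65.2 to 132 CPM given above, with its lowest value in a non-responder and its highest in a responder. Mcam was scarce but lower in responders without overlap, at 1.596 and 1.482 against 0.645 and 0.786 CPM. Of the 10 listed, 3 had a lower mean in responders, Mcam among them. The part of such cells in the Itga7 difference was not tested.

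Itgb8 was lower by a smaller factor. It had 74.6 and 74.0 CPM in the non-responders and 58.4 and 47.9 CPM in the responders. The groups did not overlap, and the non-responder values were nearly equal. The difference was 1.40-fold (log2 fold change -0.48, SE 0.17, unadjusted p 0.0241, adjusted p 0.746, edgeR). The other alpha v partner of note, Itgb5, had 83.7 and 111 CPM in the non-responders and 86.1 and 58.3 CPM in the responders. Here the groups overlapped through responder replicate 1 (log2 fold change -0.43, SE 0.24, adjusted p 0.824, edgeR). Itgb8 (ENSMUSG00000025321) spans chromosome 12 from 119158022 to 119238802 on the minus strand of mm10.

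Itgb7, which pairs with alpha 4 or alpha E and is known from lymphocyte homing to the gut, was higher in responders from low counts. It had 1.06 and 3.32 CPM in the non-responders and 8.44 and 4.30 CPM in the responders, from 22, 74, 170 and 82 reads. All responder values lay above all non-responder values, but the libraries within each group lay further apart than the closest values of the 2 groups. The fold was 2.89 (log2 fold change 1.53, SE 0.59, unadjusted p 0.0381, adjusted p 0.766, edgeR), and with 1 library left out the log2 value ran from 0.94 without non-responder replicate 1 to 2.57 without non-responder replicate 2 (adjusted p 0.0134). In responder replicate 1, where Itgb7 was highest, the summed leukocyte markers were lowest at 15.2 CPM, while between the non-responders both were higher in replicate 2. The part of leukocyte RNA in Itgb7 was not tested. The alpha partners stayed low in the same library: Itga4 had 3 reads there and Itgae, the alpha E subunit, had 0 reads. Itgb7 (ENSMUSG00000001281) spans chromosome 15 from 102215995 to 102231935 on the minus strand of mm10.

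Itga4, which is common on leukocytes, and Itga9 both bind VCAM-1 and other ligands. These 2 subunits had the most negative fold changes and the widest spread. Itga4 had 1.69 and 4.45 CPM in the non-responders and 0.15 and 1.83 CPM in the responders, and Itga9 had 1.02 and 2.56 CPM in the non-responders and 0 and 0.73 CPM in the responders. Itga4 groups overlapped, and Itga9 groups did not. Log2 fold changes were -1.64 (SE 1.10) and -2.29 (SE 1.25), at adjusted p-values of 0.859 and 0.836 (edgeR). With 1 library left out, Itga4 ran from -0.74 without responder replicate 1 to -4.31 without responder replicate 2 (adjusted p 0.0036, edgeR). Itga9 ran from -1.28 to -8.24 (adjusted p 0.0018, edgeR) in the same fits, and the last value sets the non-responders against 1 library with 0 reads, so its size depends on the fit's prior count. Across the 4 libraries both were highest in non-responder replicate 2 and lowest in responder replicate 1, as was the summed level of the 15 leukocyte markers, all 15 of which had a lower mean in responders. None of those markers was at 0 in every library, and Ptprc (CD45) had 5.95 and 22.6 CPM in the non-responders and 0.65 and 6.92 CPM in the responders. The part of leukocyte RNA in these 2 members was not tested.

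**Figure D3:**
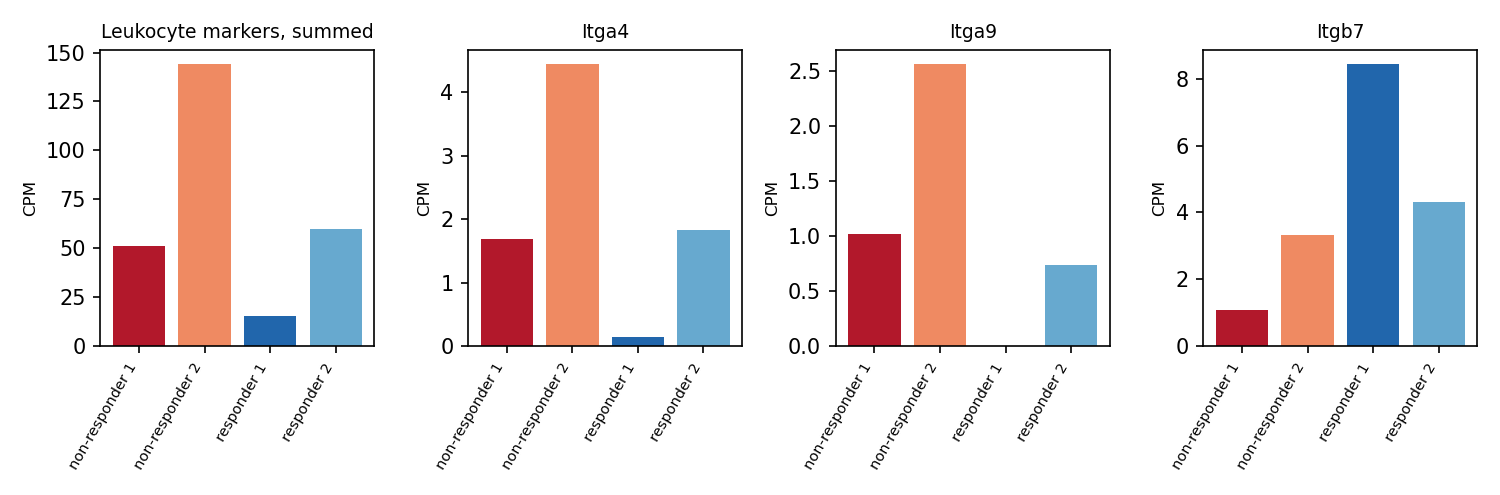
CPM (linear axes from 0) in each of the 4 libraries for the sum of 15 leukocyte markers and for Itga4, Itga9 and Itgb7. Bars are single libraries; Itga4 and Itga9 are highest in non-responder 2 and lowest in responder 1, while Itgb7 is highest in responder 1 at 8.44 CPM.

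Itgb4, the beta 4 subunit that pairs only with alpha 6 in laminin receptors and hemidesmosomes, was set apart by 1 library. Its level was 8.27 CPM in non-responder replicate 1, the lowest, against 39.3 CPM in the other non-responder library and 32.2 and 29.0 CPM among responders. The log2 fold change of 0.36 (SE 0.80, adjusted p 0.956, edgeR) became 1.88 without non-responder replicate 2 (adjusted p 6.83e-05) and -0.36 without non-responder replicate 1 (adjusted p 0.632). Its partner Itga6 had 14.8 and 18.3 CPM in the non-responders and 20.3 and 20.1 CPM in the responders, groups that did not overlap (log2 fold change 0.29, SE 0.21, adjusted p 0.862, edgeR). In non-responder replicate 1 alone Itgb4 TPM (4.17) was below that of Itga6 (5.80). In the other libraries Itga6 was the lower of the pair.

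Itgb1, Itgav and Itga5, the subunits with the highest TPM, had log2 fold changes from -0.24 to 0.22, and none of them had an unadjusted p under 0.05. Itgb1 had 1699.6 and 1230.1 CPM in the non-responders and 1401 and 1084 CPM in the responders, groups that overlapped (log2 fold change -0.24, SE 0.26). With 1 library left out its value ran from -0.45 without non-responder replicate 2 to 0.02 without non-responder replicate 1. Itgav had 643 and 489.5 CPM against 563 and 432 CPM, which also overlapped (-0.19, SE 0.24). Its value ran from -0.40 without responder replicate 1 to 0.03 without non-responder replicate 1. Itga5 was slightly higher, at 149.7 and 157 CPM in the non-responders and 186 and 172 CPM in the responders, without overlap (log2 fold change 0.22, SE 0.18, adjusted p 0.869, edgeR). Of the scarcer subunits, Itga3 had 16.8 and 23.1 against 20.9 and 18.6 CPM. Itga1 had 7.50 and 8.31 against 7.40 and 3.77 CPM (log2 fold change -0.50, SE 0.36), responders lying below by a narrow margin. The TPM share of Itga5 among alpha subunits was 33.4% and 39.4% in the non-responders and 41.3% and 45.2% in the responders, and that of Itgav was 59.2% and 50.7% against 51.6% and 46.8%. Itgav shares overlapped between the groups and Itga5 shares did not. Both are parts of the same sum, so the shares are not independent, and they were not tested.

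The focal adhesion machinery downstream of the receptors was present as a full set, and all 14 non-integrin members had at least 1 TPM in all libraries. None of the 14 had an unadjusted p under 0.05, and 13 of them had a log2 fold change smaller than 0.5 in size, where 83.3% of all genes did. Among the activators, Tln1 (talin 1) had 196 to 245 TPM and Tln2 (talin 2) 28.3 to 38.8 TPM, so talin 1 was the main form. Fermt2 (kindlin 2) had 95.0 to 147 TPM. Log2 fold changes of these 3 were -0.14, 0.08 and -0.28 with SE of 0.20, 0.20 and 0.22.

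Of the actin links, Vcl (vinculin) had 409 and 314 CPM in the non-responders and 374 and 274 CPM in the responders, and Zyx (zyxin) 269.6 and 194 against 243 and 187 CPM. Tns3 (tensin 3) had 511 and 589 against 603 and 524 CPM. All of these groups overlapped. Tns1 (tensin 1) had the most negative fold change of the 14, with 77.7 and 105 CPM in the non-responders and 79.5 and 44.0 CPM in the responders (log2 fold change -0.57, SE 0.31, adjusted p 0.824, edgeR). Its responder libraries stood 1.81-fold apart.

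Scaffold and kinase members had log2 fold changes from -0.30 to 0.27. Pxn (paxillin) was the single non-integrin member of 14 whose groups did not overlap (36.5% of all genes did not), with 76.1 and 84.0 CPM in the non-responders and 100.01 and 92.7 CPM in the responders (log2 fold change 0.27, SE 0.17, adjusted p 0.836, edgeR). The complex of Ilk, Lims1 and Parva (integrin-linked kinase, PINCH 1 and alpha-parvin), which joins beta tails to actin, had log2 fold changes of -0.05, 0.01 and -0.09 with SE of 0.18, 0.19 and 0.19. Bcar1 (p130Cas) had 122 and 86.9 against 89.5 and 80.7 CPM. Ptk2 (focal adhesion kinase) had 172 and 148 against 179 and 141 CPM, and Src 148 and 186 against 179 and 179.6 CPM.

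**Figure D4:**
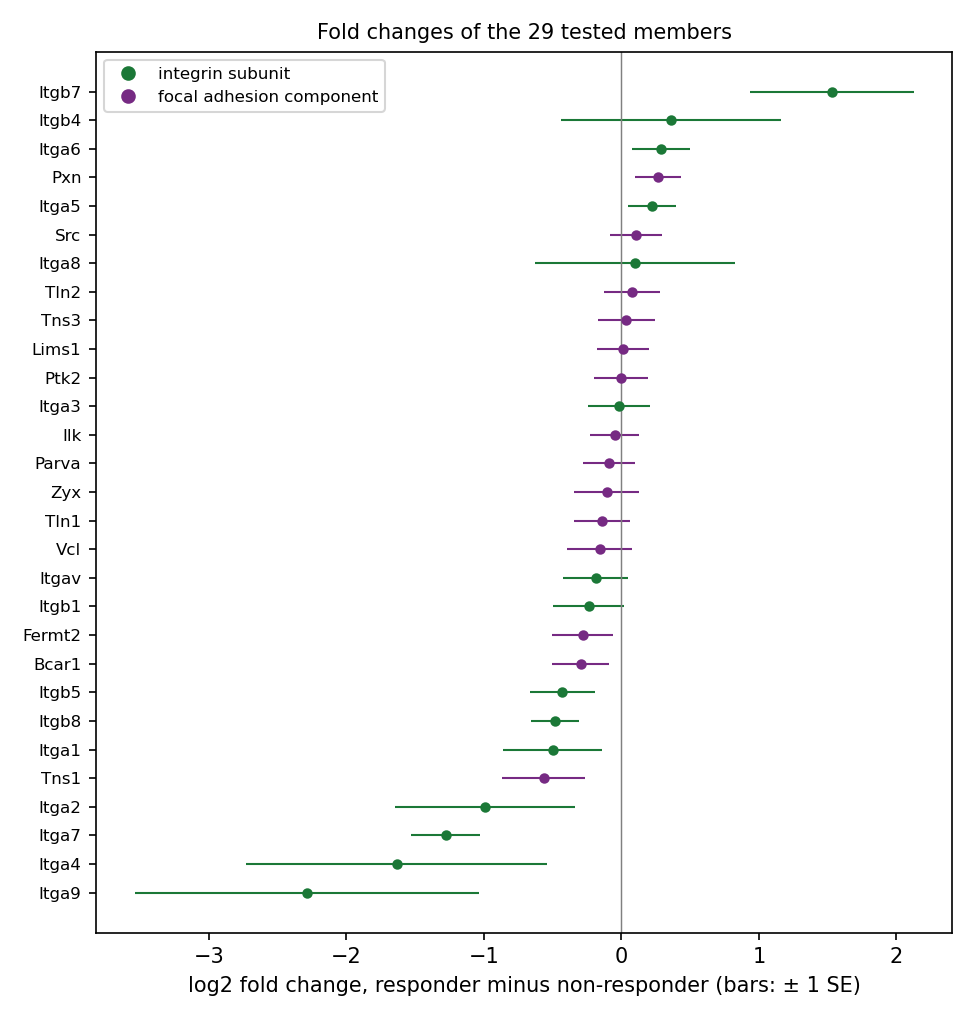
Log2 fold change (responder minus non-responder) with ± 1 SE from edgeR for the 29 members that passed the low-count filter, ordered by size, with integrin subunits and focal adhesion components in different colors. Focal adhesion components lie between -0.57 and 0.27, and the widest bars belong to the low-count Itga4 and Itga9.

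Further adhesion genes were read from a list of 54, of which 47 could be tested and 0 passed at an adjusted p under 0.05 (edgeR, 0% of all genes). At an unadjusted p under 0.05 there were 4 of the 47 (8.51%), all lower in responders. Of all genes, 6.21% reached that level, 3.63% lower and 2.57% higher. The median log2 fold change of the list was -0.02. Palld (palladin, an actin-bundling scaffold) had 32.7 and 36.5 CPM in the non-responders and 24.0 and 19.97 CPM in the responders. Nedd9, a relative of Bcar1, had 49.5 and 56.5 against 36.7 and 36.0 CPM. Lpp, a zyxin relative, had 299.9 and 257 against 214 and 180.2 CPM, and Sorbs3 (vinexin), a vinculin binder, had 50.1 and 55.0 against 42.7 and 32.6 CPM. Responder libraries lay below in each of the 4, with adjusted p-values of 0.631, 0.674, 0.766 and 0.766 (edgeR). The 4 were named for their p-values, so this separation adds no support. Over the 47, groups did not overlap for 12 (25.5%), against 36.5% of all genes.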

How the data were processed

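RNA was measured by polyA-selected, strand-specific bulk sequencing of sorted tumor cells in 4 libraries, with group and replicate number from the sample titles. The deposited values are raw counts per gene, 1 file per library and not pooled. They were made with featureCounts 1.6.1, reverse-stranded (setting 2), on Ensembl release 91, per the file headers, after alignment with STAR to mm10 (GRCm38), per the submitters' processing notes. The version of STAR is not given in the sources used here. The command in the headers did not request multi-mapping reads, so reads fitting several places are left out. The deposited exon length, the other value used, is in bases per the file headers. Of 53379 identifiers, 53274 had a symbol, and each of the 32 members matched 1 identifier. 1 member, Itga1, shared exon bases on its strand with another gene (3.68% of its length), and reads there were not assigned.

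Tests used edgeR 4.0.16 in R 4.3.3: filterByExpr (minimum count 10), which left 13792 genes, TMM factors (0.952 to 1.036), and the robust quasi-likelihood test with group as the only term. Standard errors were taken from the F statistic (absolute log2 fold change over root F). P-values were adjusted by Benjamini-Hochberg over all tested genes. The common biological coefficient of variation was 0.216. TPM values come from the deposited counts and exon lengths. They are used to compare genes and for shares and ratios of subunits in each library, which were described and not tested between the groups. Merged exons overstate the length of genes with many isoforms. The fitting steps were run on simulated counts that varied less between libraries than these data, so their error rates here were not tested. No 2 libraries were near-identical (chi-square per degree of freedom 25.3 to 74.7).

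Alternatives were RLE and upper-quartile factors, library size alone, DESeq2 1.42.0, limma-voom (limma 3.58.1), no filter, 5 CPM in 2 libraries, a replicate block, and each library left out. The members and lists were chosen with earlier results of these data known, and the level of 1 TPM after seeing the data. Named genes were the members, with values in each library for pair subunits and for those at an unadjusted p under 0.05, and listed adhesion or ligand genes at that level. Other members were named by role, and Fn1, Tgfb1, Spp1, Fbn1 and Itga10 after their values were seen.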

Additional observations from a re-analysis of the deposited data

How the results depend on the processing

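Over all genes, the number past an adjusted p of 0.05 (0 by edgeR, with 6.21% of genes at an unadjusted p under 0.05) was 62 by DESeq2, 212 with no low-count filter, 32 with the replicate block and 41 to 516 with 1 library left out. Members past it numbered 1 by DESeq2 (Itga7), 3 with no filter (Itga7, Itga9 and Itgb7; 0.716% of all genes) and 0 to 3 with 1 library left out, and members at an unadjusted p under 0.05 numbered 8 with no filter and 3 to 7 with 1 library left out. With no filter, 6.13% of all genes had an unadjusted p under 0.05. The causes were not tested. Other adhesion genes past the threshold numbered 0 to 1 with 1 library left out (Nexn, without non-responder replicate 2). The median log2 fold change of the members ran from -0.27 to -0.034 with 1 library left out. Same-numbered libraries are not said to be paired. Their deviations correlated at 0.37 over 2 numbers. With the replicate block 0 members passed (0.232% of all genes) and 4 of 29 had an unadjusted p under 0.05, where 12.5% of all genes did. With 1 library left out, 15 of 29 members kept the sign of their fold change in all 4 fits. The others ran from -0.22 to 0.23 (Itga3), -1.41 to 0.83 (Itga8), -0.40 to 0.027 (Itgav), -0.45 to 0.019 (Itgb1), -0.36 to 1.88 (Itgb4), -0.15 to 0.27 (Tln2), -0.41 to 0.050 (Vcl), -0.33 to 0.15 (Zyx), -0.18 to 0.16 (Ptk2), -0.16 to 0.072 (Ilk), -0.19 to 0.0024 (Parva), -0.12 to 0.13 (Lims1), -0.071 to 0.14 (Tns3) and -0.044 to 0.28 (Src). In the fits on all libraries, signs turned for Itga3 (0.0040) and Ptk2 (0.028) with library size alone, and for Itga8 by limma-voom (-0.27) and with the replicate block (-0.060). Per count with no length term, the share of beta subunits was 1.88% for Itgb4, 0.012% for Itgb6 and 4.17% for Itgb8. Itga8, Itga9 and Itga2 rest on 57 reads or fewer in each library, which limits them.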

Other observations

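Several abundant members kept the same order of libraries. Itgb1, Itgav, Vcl, Zyx, Fermt2 and Bcar1 were each highest in non-responder replicate 1, followed by responder replicate 1, non-responder replicate 2 and responder replicate 2, an order found in 7.67% of all genes tested. Itgb1 had 1699.6, 1401, 1230.1 and 1084 CPM along that order. Both replicate 1 libraries thus stood above both replicate 2 libraries, and the non-responder stood above the responder within each replicate number. Among 28 tested members with reads in all libraries, 23 were higher in responder replicate 1 than in responder replicate 2, where 49.1% of all genes were, and the median log2 ratio was 0.22 against -0.01. The lowest library was responder replicate 2 for 16 of the 28, against 24.7% of all genes. The pattern was noticed in these values and its cause was not tested.

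Ratios between beta partners of alpha v also varied by library. Itgb5 TPM was 3.69 and 4.93 times Itgb8 TPM in non-responder replicates 1 and 2 and 4.85 and 4.01 times in responder replicates 1 and 2, so the groups overlapped. Itgb1 TPM was 6.55 to 6.96 times Itgav TPM in all 4 libraries, a narrow range beside the 1.53-fold range of Itgb1 TPM itself.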
